A study of Mus musculus with 9 samples.

Results

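The 51 genes described here fell in mouse calf muscle when the hind legs lost their load and fell again 1 day after load returned. They were chosen by their group means from 9574 candidates, which are protein-coding genes with at least 10 counts in at least 2 of 9 libraries and a mean log2(CPM+1) above 2 in Control. CPM stands for counts per 1000000 counts in genes, with libraries brought to a common scale by edgeR's TMM factors (trimmed mean of M-values). A member had a mean log2(CPM+1) at least 0.4 lower in Unloading than in Control and at least 0.4 lower in Reloading than in Unloading, and symbols of the respiratory chain and mitochondrial ribosome families were left out of the list. The members were therefore selected on both steps, and the size of either step in these genes is given as a description, without a test.

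Polyadenylated RNA of gastrocnemius muscle was sequenced from male, wild-type mice, 1 library per sample, of the strain C57BL/6 per the labels and C57BL/6J in the published account. The methods of the study describe female mice for the procedure. The Control group (n = 4) lived in conventional cages, the Unloading group (n = 2) was taken at day 10 of hindlimb unloading, and the Reloading group (n = 3) was taken at day 1 of reloading, after the same unloading. In hindlimb unloading the tail is tethered so that the hind feet carry no weight. The sources used here do not say whether the libraries of a group came from separate cages or days, so the spread between them may be partly technical.

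Gastrocnemius is a mixed calf muscle in which fast, glycolytic fibres outnumber slow, oxidative ones. Oxidative fibres hold more myoglobin, more mitochondria and more of the enzymes that burn fatty acids, ketone bodies and branched-chain amino acids, and disuse of a muscle is known to lower that machinery. A return of load after disuse is followed by stress responses, repair and regrowth of the fibres. Interferon-induced GTPases such as the guanylate-binding proteins are part of cell-autonomous immunity and can be switched on in most cell types.

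A few promoter stretches are shown first, because they hold the elements for which the promoters of the members were searched. The sequences are from RefSeq on build GRCm38.p6, which gave promoter windows for 36 of the 51 members. Each stretch lies before a start of transcription and is written 5′ to 3′ on the gene's strand. The capitals mark a CArG box, the element of serum response factor, in Myl3, the hexamer AGGTCA of nuclear receptors, or its complement, in Mb and Mlf1, and in Gbp7 a pair of gamma-activated sites (TTCNNNGAA) followed, nearer to the start, by an interferon-stimulated response element (TTTC and TTTC with 2 bases of any kind between them).
Myl3 (chr9:110763581-110763614, plus strand): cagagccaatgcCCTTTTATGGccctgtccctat
Mb (chr15:77022847-77022876, minus strand): aagtccagacagTGACCTggctgcttcccc
Mlf1 (chr3:67374041-67374070, plus strand): agtgacgtcataAGGTCAtgaccaatagga
Gbp7 (chr3:142530218-142530250, plus strand): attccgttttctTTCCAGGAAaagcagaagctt
Gbp7 (chr3:142530237-142530269, plus strand): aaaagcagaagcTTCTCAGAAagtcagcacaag
Gbp7 (chr3:142530271-142530304, plus strand): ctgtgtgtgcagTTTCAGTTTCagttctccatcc
The CArG box of Myl3 ended 75 bases before the start, and such a box was present in 1.63% of all 300-base windows in the table. The 36 members had 44 windows. The hexamer was found in 13 of the members (14 of their windows) and in 16.3% of all windows. The response element was in Gbp7 and Homer1 (2 windows) and in 3.44% of all windows. The gamma-activated site was in Frzb, Gbp7 and Ivd (3 windows) and in 8.30% of all windows. No window of a member held the estrogen-related receptor element TCAAGGTCA, which contains the hexamer, the D-box (TTATGTAA or TTACGTAA) or the MEF2 site, against 0.423%, 1.06% and 3.19% of all windows. The myogenic E-box CAGCTG was in 9 members (10 of their 44 windows) and 16.3% of all windows. The E-box CACGTG was in Bhlhe41 alone of the members (1 window) and in 7.15% of all windows. All motifs were searched on both strands, and with 70.6% of the members matched, a comparison of these shares with all promoters is void. A match describes the letters only, and the binding of a factor was not measured.

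Over the 51 members the median difference was -0.54 on the log2(CPM+1) scale from Control to Unloading and -0.55 from Unloading to Reloading. The median difference from Control to Reloading was -1.19. The total fall reached at least 1 log2 unit in 36 of the 51 members. The first step was the larger one in 24 members, and unloading took between 32.4% of the total fall, in Mb, and 70.1%, in Oxct1. Among the 9574 candidates, 434 fell by 0.4 or more in unloading and 1456 in reloading, and of those that fell in unloading, 156 rose by 0.4 or more on reloading.

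**Figure D1:**
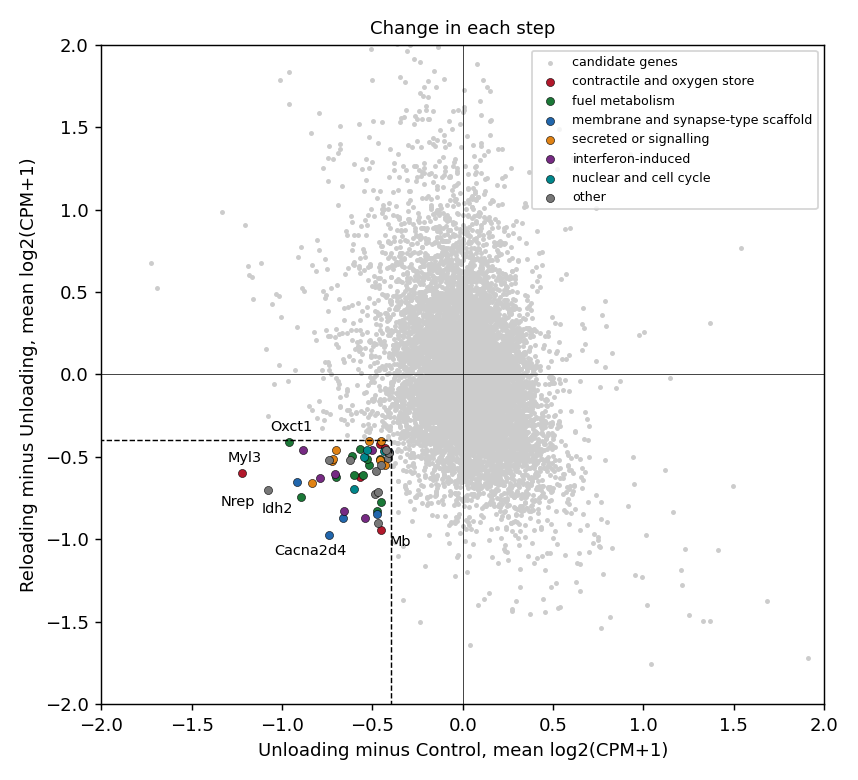
Each point is a candidate gene, with the difference in mean log2(CPM+1) from Control to Unloading on the horizontal axis and from Unloading to Reloading on the vertical axis. Coloured points are the 51 members by role, dashed lines are the thresholds of 0.4 in each step, and 44 of 9574 candidates lie outside the plotted range.

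The thresholds cut through a continuous range. Just inside the limit for unloading were Nipsnap2 and Homer1, both at -0.41, and just outside were Casp12 at -0.40 (-0.398 before rounding to 2 decimals) and Carnmt1 at -0.39. Just inside the limit for reloading were Frzb and Shc2, both at -0.40 (-0.401 and -0.403), and just outside were Cib2 at -0.39 and Cradd at -0.38. The members with the lowest Control means were Gbp6 at 2.22 and Gbp10 at 2.37, while BC048679 at 1.76 and Cd27 at 1.26 met both steps but fell short of a Control mean of 2. Ndufs1 and Cox8b, subunits of respiratory complexes I and IV, met every value and were left out by their family names.

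Every Control library lay above every Unloading library for 43 of the 51 members, against 15.5% of all candidates. Every Unloading library lay above every Reloading library for 47 members, against 35.3% of candidates, and both held for 42 members, against 4.32%. In edgeR's quasi-likelihood test on all 14851 tested genes (adjusted p under 0.05), 37 members were lower in Unloading than in Control, beside 5.50% of all genes. The same test called 41 members lower in Reloading than in Unloading, beside 19.0% of all genes, and all 51 lower in Reloading than in Control, beside 21.3%. The rule used these same contrasts, so nothing is read from these counts.

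**Figure D2:**
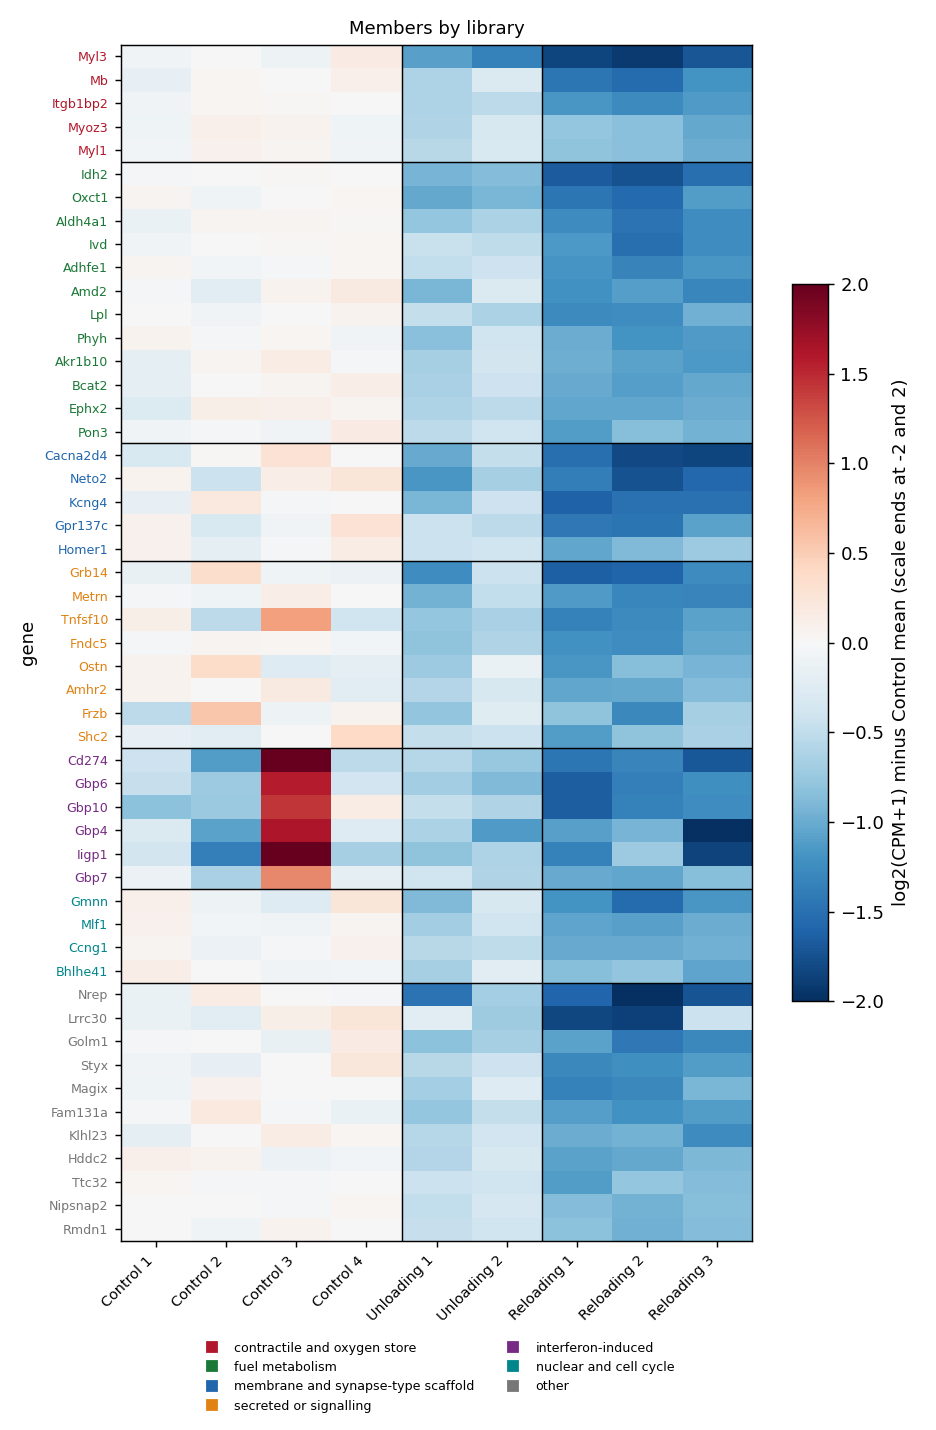
Rows are the 51 members, ordered by role and within a role by the total fall, and columns are the 9 libraries. Colour is log2(CPM+1) minus the mean of the 4 Control libraries, cut at -2 and 2, and the block of interferon-induced members stands out by its values in Control 3.

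Library totals ranged from 9252443 to 19612101 counts in genes, so that a single count was worth between 0.0546 and 0.113 CPM after scaling. The lowest count of any member in any library was 6, in Gbp6, and 2 members, Gbp6 and Gbp10, had a count under 10 in some library. The 10 muscle fibre markers summed to between 183389 and 199181 CPM in Control, 191865 to 198182 in Unloading and 134471 to 146695 in Reloading, and 7 of the 10 were lower in Reloading than in Unloading. The summed macrophage markers went from 104 to 107 CPM in Unloading to between 194 and 223 in Reloading (11 of 12 higher), and the endothelium markers from 259 to 270.3 up to between 435 and 520.2 (11 of 12 higher, 7 without Unloading 2). Smooth muscle (8 of 9, and 1 lower), tendon (6 of 7) and Schwann cell (6 of 8) markers were higher as well. The tendon median was 0.75, and 0.63 without Unloading 1. Of 9 fibro-adipogenic progenitor markers, 3 were lower and 3 higher. Only 1 of 7 satellite cell, 1 of 9 adipocyte and 0 of 6 erythrocyte markers were higher. Over all tested genes, 19.0% were lower and 18.5% higher in this comparison. The 12 lymphocyte markers summed to at most 2.65 CPM in any library and none passed the filter. The skin markers reached 310.0 CPM in Control 2 and 140.4 in Reloading 1, and at the threshold of 0.4 the list kept 49 members without Control 2 and 48 without Reloading 1.

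Fibre markers fell with the second step. Over the same 10 fibre markers, of which Mb is also a member, the median difference was 0.04 from Control to Unloading and -0.61 from Unloading to Reloading on the log2(CPM+1) scale, and 19 of the 51 members fell by more than that on reloading. In whole muscle, fewer cells of a type and less RNA per cell cannot be told apart, and the part of cell composition in the fall on reloading was not tested. The size of the second step also hung on the scaling: with library totals alone, all 51 members were still lower in Reloading than in Unloading, by 0.17 to 0.79, but the median was -0.33 and 17 of the 51 passed the thresholds. The same change of scaling moved the median of all candidates from -0.04 to 0.19, and it left the median of the first step at -0.54.

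Among the contractile genes and the oxygen store, Myl3 had the largest fall of all 51 members. Myl3 (ENSMUSG00000059741, GRCm38 chromosome 9, 110741861 to 110769798), whose CArG box is shown above, encodes the essential myosin light chain of slow fibres and heart ventricle. It had 173, 183, 169.8 and 205 CPM in Control, 85 and 70.8 in Unloading and 50.4, 47.7 and 54.7 in Reloading. The 3 groups did not overlap, and most of the fall, 67.1% of it, was present at the end of unloading. The mean level was 183 ± 15.7 CPM in Control (SD, n = 4), 77.9 ± 10 in Unloading (SD, n = 2) and 51 ± 3.54 in Reloading (SD, n = 3), and the differences were -1.22 and -0.60 on the log2(CPM+1) scale.

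Mb (ENSMUSG00000018893, chromosome 15, 77015487 to 77050670), the oxygen-binding myoglobin of oxidative fibres, showed the opposite split. It had 1509, 1735, 1696 and 1803 CPM in Control, 1091 and 1384 in Unloading and 616, 578 and 731 in Reloading. The groups were apart, with 32.4% of the fall in unloading and differences of -0.45 and -0.94. Myl1 (chromosome 1, 66924295 to 66945404), the essential light chain of fast fibres, was the most abundant member, at 4732 CPM per kb of exon in Control against 89.5 for Myl3. It had 9444, 10354, 10136 and 9321 CPM in Control, 6673 and 7942 in Unloading and 5589.7, 5517 and 4950.4 in Reloading, without overlap between groups. The fast light chain had differences of -0.43 and -0.45, close to each other. Itgb1bp2, the muscle-specific integrin partner melusin, fell by 0.57 and then by 0.62 on the log2 scale, with 115, 123, 122 and 121 CPM in Control, 78.3 and 83.5 in Unloading and 53.3, 49.3 and 54.4 in Reloading. Myoz3, a Z-disc protein of fast fibres that binds calcineurin, had 276, 315, 307 and 278 CPM in Control, 194 and 236 in Unloading and 172, 164 and 144 in Reloading.

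The rest of the slow and the fast contractile programme is given by its counts. Of 24 tested slow-fibre and cardiac-type genes, Myl3 and Mb among them, 5 were lower in Unloading than in Control, while 5 were lower and 9 higher in Reloading than in Unloading, beside 18.5% of all genes higher. Their median log2 fold change on reloading was -0.16 after TMM and 0.08 with library totals. After TMM it was 0.22 without Unloading 1 and -0.31 without Unloading 2, so its sign depended on the unloaded library used. On unloading their median was -0.11, and it was -0.32 without Unloading 1 and 0.01 without Unloading 2. Of 23 tested fast-fibre genes, Myl1 and Myoz3 among them, 6 were lower and 2 higher on unloading, beside 4.40% of all genes higher, and 16 were lower on reloading, with medians of 0.04 and -0.45, the second being -0.20 with library totals. Without Unloading 1, the fast-fibre genes called on unloading numbered 1 lower and 1 higher, the slow-fibre genes called lower on unloading 3, as also without Unloading 2, and the slow-fibre genes called lower on reloading 2. Counts given for gene lists are from edgeR's test at an adjusted p of 0.05.

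**Figure D3:**
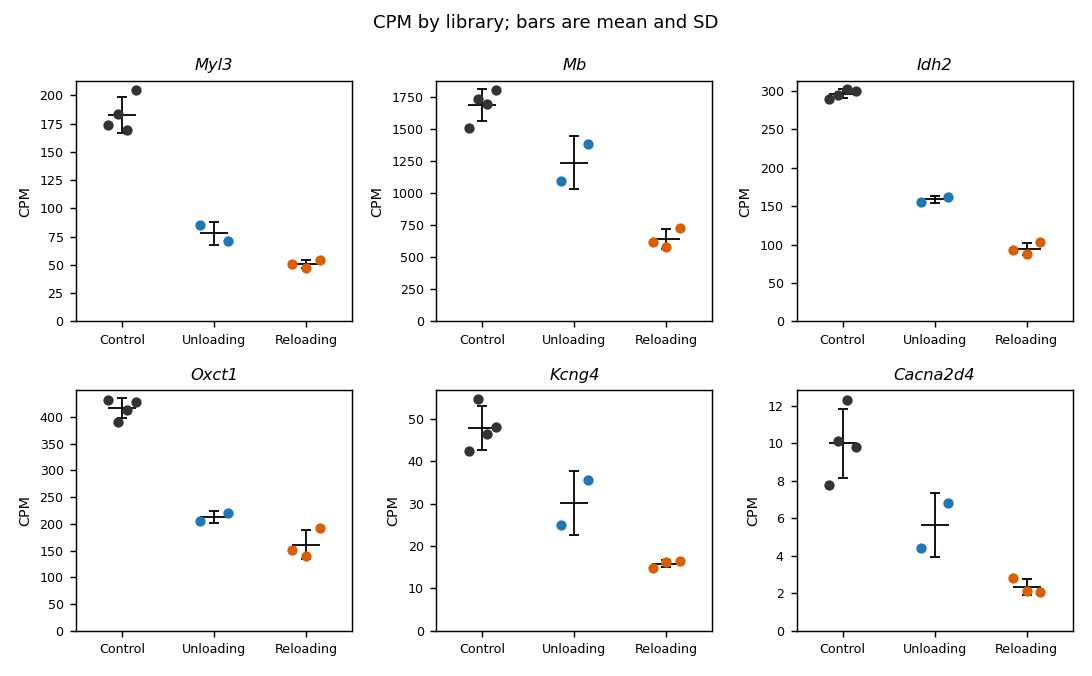
Each panel gives the CPM of a member in every library (points), with the group mean and SD (bars), for Control (n = 4), Unloading (n = 2) and Reloading (n = 3). The panels show Myl3, Mb, Idh2, Oxct1, Kcng4 and Cacna2d4, and in all 6 of them the groups descend without overlap.

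Fuel metabolism was the largest group with a named role. Its 12 members all had 3 groups without overlap, as had 42 of all 51 members and 4.32% of candidates. The rule selected on both steps, so this order is not particular to fuel metabolism. Idh2 (ENSMUSG00000030541, chromosome 7, 80094846 to 80115392) encodes the mitochondrial isocitrate dehydrogenase that makes NADPH. It had 289, 295, 302 and 299 CPM in Control, 156 and 162 in Unloading and 92.7, 88 and 103 in Reloading. Libraries of a group lay close together, at 296 ± 5.56 CPM in Control (SD, n = 4), 159 ± 4.46 in Unloading (SD, n = 2) and 94.6 ± 7.79 in Reloading (SD, n = 3). The differences were -0.89 and -0.74.

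Of the other genes of the TCA cycle and pyruvate dehydrogenase, none was a member. Counting Idh2, 20 of the 31 tested genes of that list were lower in Unloading than in Control, and 18 were lower and 2 higher in Reloading than in Unloading. The median log2 fold changes were -0.30 and -0.29, against -0.0038 and 0.03 for all genes tested. With library totals the median on reloading was -0.04. Mpc1 and Mpc2, which together form the mitochondrial pyruvate carrier, had log2 fold changes of -0.30 and -0.41 on unloading and -0.66 and -0.34 on reloading, all past the threshold. Sdhb, a subunit of succinate dehydrogenase, had -0.61 and -0.19, while Dlst and Pdhb fell on unloading (-0.34 and -0.33) and rose on reloading (0.30 and 0.24). The median on unloading was -0.23 without Unloading 1 and -0.38 without Unloading 2. On reloading it was -0.34 without Unloading 1 and -0.20 without Unloading 2. Each of these settings leaves a single unloaded library. Without Unloading 1, edgeR called 0 genes of this list higher on reloading, also at an unadjusted p under 0.05, so the rise of Dlst and Pdhb rested on that library.

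Oxct1 (ENSMUSG00000022186, chromosome 15, 4026383 to 4155344), the enzyme that commits ketone bodies to oxidation, had the largest first step of the metabolic members. It had 432, 390.4, 413 and 428 CPM in Control, 205 and 220.3 in Unloading and 151, 140.0 and 192 in Reloading. The first step was -0.96 and the second -0.41, and the second lay near the threshold, so that Oxct1 left the list without Reloading 1, without Reloading 2 or without Unloading 2. Bdh1, which acts beside it in ketone use, was no member: it had a log2 fold change of -1.24 on unloading and rose by 0.64 on reloading.

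Members for the breakdown of amino acids were Ivd, Aldh4a1 and Bcat2. Ivd (chromosome 2, 118861954 to 118882909), the isovaleryl-CoA dehydrogenase of leucine breakdown, had 148, 154, 158 and 159 CPM in Control, 113 and 109 in Unloading and 69, 53.9 and 64.5 in Reloading. Its second step was the larger, -0.83 against -0.47. Aldh4a1 (chromosome 4, 139622866 to 139649690), the last enzyme of proline breakdown, had 70.8, 80.3, 80.4 and 78.7 CPM in Control, 45 and 49.6 in Unloading and 31.9, 27.2 and 32.3 in Reloading. Its steps were -0.70 and -0.62, and its exons overlap another gene on the same strand. Bcat2, the mitochondrial aminotransferase that opens the breakdown of leucine, isoleucine and valine, had 65.2, 74, 76.6 and 81.4 CPM in Control, 47.1 and 55.3 in Unloading and 36.5, 33.9 and 36 in Reloading, with -0.53 and -0.51.

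The list of amino acid and ketone breakdown held 4 members. Of its 32 tested genes, 14 were lower and 1 higher in Unloading than in Control, and 27 were lower and 1 higher in Reloading than in Unloading. The medians were -0.27 and -0.54, and the median on reloading was -0.30 with library totals. The branched-chain keto acid dehydrogenase subunits Bckdha, Bckdhb and Dbt had log2 fold changes of -1.01, -0.73 and -0.32 on reloading. On unloading these 3 genes had -0.19, which did not pass the threshold, -0.33 and -0.57. Pcca and Mmut, which act in propionate use, had -0.32 and -0.30 on unloading and -0.60 and -0.60 on reloading. The gene called higher was Gpt2, an alanine aminotransferase, on unloading (0.78) and Bdh1 on reloading. The median on unloading was -0.24 without Unloading 1 and -0.30 without Unloading 2, and on reloading it was -0.59 and -0.52. Each of these settings leaves a single unloaded library.

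Lipid handling was represented by Lpl, Phyh and Ephx2. Lpl (chromosome 8, 68880491 to 68907448), the lipoprotein lipase that frees fatty acids from circulating triglyceride, had 614, 586, 619 and 644 CPM in Control, 443 and 397 in Unloading and 254, 260.0 and 316 in Reloading. Its groups were well apart, and its steps were -0.55 and -0.61. Phyh, the peroxisomal hydroxylase of phytanic acid, had 164, 152, 159.6 and 149 CPM in Control, 87.4 and 118 in Unloading and 78.2, 67.5 and 70.5 in Reloading. Ephx2, the soluble epoxide hydrolase, had 22.6, 29.9, 29.4 and 28.6 CPM in Control, 17.6 and 18.8 in Unloading and 12.9, 12.8 and 13.3 in Reloading. Of 41 tested genes of lipid synthesis and storage, 7 were lower and 1 higher on unloading, and 8 were lower and 13 higher on reloading. Of 35 tested peroxisomal genes, 2 were lower on unloading, and 10 were lower and 3 higher on reloading, with a median on reloading of -0.15 that became 0.09 with library totals. Without Unloading 1 the lipid genes called lower on unloading numbered 2 and those called higher on reloading 7, the peroxisomal genes called higher on reloading numbered 1, and on unloading edgeR called 0 peroxisomal genes lower, with 2 at an unadjusted p under 0.05. Without Unloading 2 the lipid genes called lower on reloading numbered 5 and the peroxisomal genes 4.

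The remaining metabolic members were Adhfe1, Amd2, Akr1b10 and Pon3. Adhfe1, a mitochondrial transhydrogenase of hydroxy acids, had 49.7, 46.2, 47 and 49.4 CPM in Control, 33.8 and 36 in Unloading and 20.7, 18.4 and 21 in Reloading. Pon3, a lactonase of the paraoxonase family, had 27.4, 28.3, 27.2 and 32.4 CPM in Control, 19.8 and 21.5 in Unloading and 12.7, 15.4 and 14.5 in Reloading. Amd2 and Akr1b10 have closely similar relatives in the mouse genome, so their counts are uncertain. Amd2 had 22.6, 19.3, 23.9 and 26.1 CPM in Control, 11.7 and 18.6 in Unloading and 9.28, 10.1 and 8.68 in Reloading, and Akr1b10 had 39.7, 46.5, 49.8 and 44.1 CPM in Control, 27.9 and 34.6 in Unloading and 22.4, 20.9 and 19.6 in Reloading.

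The members of the plasma membrane, of internal membranes and of synapse-type scaffolds had larger second than first steps, except for Neto2. Cacna2d4 (ENSMUSG00000041460, chromosome 6, 119236526 to 119352407) encodes an auxiliary subunit of voltage-gated calcium channels. It had 7.78, 10.1, 12.3 and 9.78 CPM in Control, 4.41 and 6.82 in Unloading and 2.82, 2.1 and 2.05 in Reloading. Its second step, -0.98, was the largest of the 51 members. Kcng4 (chromosome 8, 119623854 to 119635680), a modifier subunit of voltage-gated potassium channels, had 42.3, 54.7, 46.4 and 48.1 CPM in Control, 24.9 and 35.5 in Unloading and 14.8, 16.3 and 16.4 in Reloading. The Reloading libraries lay close together at 15.8 ± 0.853 CPM (SD, n = 3), while Unloading 1 and Unloading 2 were further apart. Neto2, an auxiliary subunit of kainate receptors, had 10.1, 6.88, 10.6 and 11.6 CPM in Control, 3.74 and 5.73 in Unloading and 3.07, 2.17 and 2.58 in Reloading, with steps of -0.92 and -0.65. Homer1, a scaffold that ties calcium channels and receptors together, had 116, 96, 106 and 122 CPM in Control, 81.3 and 83 in Unloading and 52.8, 58.9 and 65.8 in Reloading. Gpr137c, a membrane protein of the lysosome, was low, with 5.53, 3.98, 4.86 and 6.52 CPM in Control, 3.59 and 3.27 in Unloading and 1.29, 1.23 and 1.92 in Reloading.

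Of 36 tested genes of excitation-contraction coupling and calcium handling, Cacna2d4 was the member. In that list 4 genes were lower and 2 higher on unloading, and 22 were lower and 1 higher on reloading. The medians were -0.0078 and -0.37, the second being -0.12 with library totals. The counts on unloading were 1 lower and 1 higher without Unloading 1.

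Secreted and signalling members lost more in the first step in 6 of 8 cases. Grb14 (chromosome 2, 64912476 to 65024987), an adaptor that restrains the insulin receptor, had 14.7, 21.1, 15.4 and 15 CPM in Control, 6.35 and 11.8 in Unloading and 4.6, 4.7 and 6.29 in Reloading. Unloading 1 lay just above Reloading 3, and without Unloading 2 the second step was too small for the list. Fndc5 (chromosome 4, 129136999 to 129144593), the precursor of the myokine irisin, had 96.2, 102.4, 101.7 and 94.9 CPM in Control, 56.1 and 64.9 in Unloading and 42, 41 and 48.1 in Reloading, with -0.70 and -0.46. Metrn, the neurotrophic factor meteorin, had 25.9, 24.9, 29.1 and 26.3 CPM in Control, 13.2 and 18.5 in Unloading and 11.6, 10.1 and 10 in Reloading, and its exons overlap another gene on the same strand. Ostn, the muscle peptide osteocrin or musclin, had 16.5, 20.5, 12.9 and 13.6 CPM in Control, 9.04 and 14.1 in Unloading and 6.37, 8.25 and 7.75 in Reloading. Its Unloading 2 library lay above Control 3 and Control 4.

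The other signalling members were Tnfsf10, Amhr2, Frzb and Shc2. Tnfsf10, the death ligand TRAIL, which interferons are known to induce, had 13, 7.96, 21.6 and 8.75 CPM in Control, 6.5 and 7.2 in Unloading and 4.03, 4.34 and 5.17 in Reloading. Control 3 was the highest, and without it the first step was -0.45 in place of -0.72, still past the threshold. Amhr2, a receptor of the TGF-beta family, had 8.23, 7.79, 9 and 6.52 CPM in Control, 4.86 and 6.06 in Unloading and 3.31, 3.33 and 3.84 in Reloading, and without Control 3 its first step of -0.40 (-0.399) fell short of the threshold. Frzb, a secreted antagonist of Wnt proteins, had 3.61, 8.78, 5.21 and 6.01 CPM in Control, 2.84 and 4.64 in Unloading and 2.82, 1.74 and 3.18 in Reloading, and both pairs of neighbouring groups overlapped. Shc2, an adaptor of receptor tyrosine kinases, had 7.67, 7.29, 8.71 and 11.8 CPM in Control, 5.98 and 6.22 in Unloading and 3.47, 4.56 and 5.23 in Reloading. Of 38 tested secreted factors and growth signalling genes, Grb14, Fndc5 and Ostn among them, 5 were lower and 3 higher on unloading, and 10 were lower and 6 higher on reloading. Without Unloading 1 the counts on unloading were 1 lower and 1 higher.

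Members that act in the nucleus or the cell cycle were Ccng1, Bhlhe41, Mlf1 and Gmnn. Ccng1 (chromosome 11, 40748552 to 40755311), cyclin G1, a target of p53, was the third most abundant member by CPM. It had 1087, 969, 1022 and 1113 CPM in Control, 709 and 737 in Unloading and 522, 521 and 536 in Reloading, and the libraries of each group lay close together. Bhlhe41 (chromosome 6, 145858243 to 145865558), a repressor of the circadian clock whose promoter held the E-box, had 116, 105, 101 and 101.9 CPM in Control, 66.7 and 90.9 in Unloading and 58, 60.5 and 50.2 in Reloading. Mlf1, an adaptor named for myeloid leukaemia and abundant in muscle, had 345, 312, 309 and 337 CPM in Control, 200.2 and 247 in Unloading and 156, 153 and 163 in Reloading. Gmnn, geminin, which keeps DNA from being replicated again within a cycle, was low, with 7.78, 6.63, 5.86 and 8.67 CPM in Control, 3.44 and 5.51 in Unloading and 2.58, 1.81 and 2.65 in Reloading.

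The clock list held 1 member, Bhlhe41. Of 25 tested genes of the clock and its output, 1 (Bhlhe41) was lower and 9 were higher in Unloading than in Control, and 14 were lower and 5 higher in Reloading than in Unloading. The medians were 0.14 and -0.30, the second being -0.06 with library totals. Without Unloading 1, edgeR called 3 genes of the list higher and 0 lower on unloading, with 0 lower also at an unadjusted p under 0.05, and the count higher on reloading was 3, as it was without Unloading 2. Bhlhe41 left the members in 4 of the 9 settings that left out 1 library. The hour at which each muscle was taken is not given in the sources used here.

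Of the members without a shared role, Nrep (ENSMUSG00000042834, chromosome 18, 33437019 to 33464029), a small protein linked to regeneration of nerve and muscle, had the second largest total fall, -1.78. It had 164, 201, 181 and 178 CPM in Control, 64.1 and 112 in Unloading and 59.3, 43.8 and 53.6 in Reloading. All Control libraries were above the others, but Unloading 1 was close to the Reloading libraries and Unloading 2 lay between the groups. Lrrc30 (chromosome 17, 67630964 to 67632723) had 76.5, 71.8, 91.8 and 100.1 CPM in Control, 71.6 and 51.1 in Unloading and 23.2, 22.4 and 62.3 in Reloading. Reloading 3 lay above Unloading 2, so the second step of -0.90 rested on the other two reloaded libraries. Nipsnap2 (chromosome 5, 129725063 to 129758327), a mitochondrial protein that marks damaged mitochondria for removal, had 604, 603, 590.4 and 625 CPM in Control, 431 and 482 in Unloading and 332, 314 and 336 in Reloading, and its groups did not overlap. The catalytically inactive phosphatase Styx had 30.8, 28.9, 32.6 and 38.3 CPM in Control, 21.8 and 24.1 in Unloading and 12.7, 13.3 and 14.4 in Reloading. The Golgi membrane protein Golm1 had 21.2, 21.8, 19.4 and 24.2 CPM in Control, 11.7 and 13.3 in Unloading and 9.76, 7.38 and 8.28 in Reloading. For the remaining 6 of these 11 members (Magix, Fam131a, Klhl23, Hddc2, Ttc32 and Rmdn1), the groups did not overlap in either step, and the total fall lay between -1.19 in Magix and -0.88 in Rmdn1, whose exons overlap another gene on the same strand.

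The 2 unloaded libraries were not alike in depth of the first step. Of the 45 members outside the interferon-induced group, 40 were lower in Unloading 1 than in Unloading 2. Over all candidates that share was 49.8%, and it was 75.8% over the 434 candidates that fell by 0.4 or more on unloading. On average these 45 members stood at 5.28 log2(CPM+1) in Unloading 1 and 5.52 in Unloading 2, compared with 5.94 to 6.03 in the Control libraries and 4.74 to 4.89 in the Reloading libraries. Both unloaded libraries thus lay between the groups, and the share of the fall that each step took depended on which of them was used. With Unloading 1 alone the medians over the 51 members were -0.64 and -0.43, and with Unloading 2 alone they were -0.44 and -0.68. Without Unloading 1 the rule gave 41 genes, 31 of them among the 51, and without Unloading 2 it gave 47, with 32 shared. The 2 steps share the Unloading libraries, so a low value there enlarges the first step and shrinks the second.

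**Figure D4:**
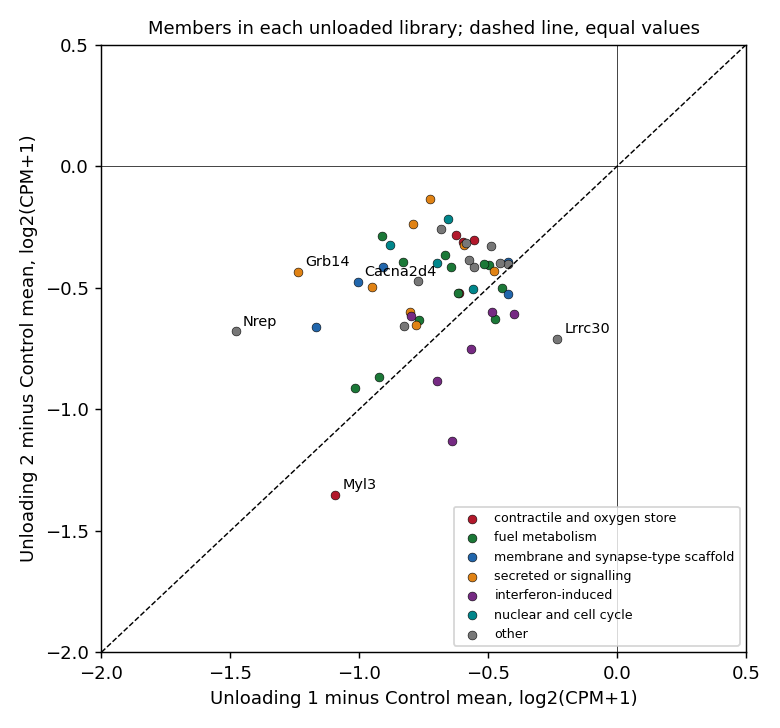
Each point is a member, with log2(CPM+1) minus the Control mean in Unloading 1 on the horizontal axis and in Unloading 2 on the vertical axis. The dashed line marks equal values, and 41 of the 51 members lie above it, which means a lower value in Unloading 1.

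The 6 interferon-induced members (Gbp4, Gbp6, Gbp7, Gbp10, Iigp1 and Cd274) had a first step that rested on 1 library, Control 3, without which they no longer met the rule. Iigp1 (chromosome 18, 60376027 to 60392634), an immunity-related GTPase, had 18.5, 8.78, 133 and 14.9 CPM in Control, 13.5 and 15.5 in Unloading and 8.88, 14.3 and 5.96 in Reloading. Cd274 (chromosome 19, 29367455 to 29388095), the checkpoint ligand PD-L1, had 3.83, 1.99, 25.7 and 3.52 CPM in Control, 3.36 and 2.84 in Unloading and 1.37, 1.59 and 0.994 in Reloading. In both genes Control 3 was far above the rest, and the other Control libraries overlapped the Unloading libraries.

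The guanylate-binding proteins showed the same library. Gbp4 had 13.9, 7.62, 54.4 and 14.1 CPM in Control, 10.6 and 7.26 in Unloading and 7.5, 8.47 and 3.51 in Reloading, and Gbp7, whose interferon elements are printed above, had 19.8, 13.5, 42.9 and 18.8 CPM in Control, 16.1 and 13.9 in Unloading and 10.2, 10.1 and 11.6 in Reloading. Gbp6 had 2.37, 1.82, 12.9 and 2.57 CPM in Control, 1.87 and 1.53 in Unloading and 0.484, 0.796 and 0.994 in Reloading, and Gbp10 had 1.92, 2.07, 12.9 and 4.72 CPM in Control, 2.69 and 2.4 in Unloading and 0.646, 1.01 and 1.19 in Reloading. Gbp4, Gbp6 and Gbp10 lie side by side on chromosome 5 (between 105115767 and 105293698) and their exons overlap other genes on the same strand, as do those of Gbp7, so how reads were split among these similar genes is uncertain.

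All 6 were highest in Control 3, and for none of them did every Control library lie above every Unloading library. Control 3 stood 1.67 log2 units above the Control mean over these 6 genes and 0.02 above it over the other 45 members. Without Control 3 all 6 left the list, together with Amhr2, and 44 of the 51 remained. The first step without Control 3 was 0.10 for Iigp1 and 0.02 for Cd274, a change of sign, and it was -0.35 for Gbp4, -0.27 for Gbp6, -0.19 for Gbp7 and -0.07 for Gbp10. The second step does not use Control, but the rule selected on it. Between Unloading and Reloading, 4 of the 6 did not overlap, while Gbp4 and Iigp1 did. Every Unloading library lay above every Reloading library for 47 of the 51 members and 35.3% of candidates, so nothing is read from this count.

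**Figure D5:**
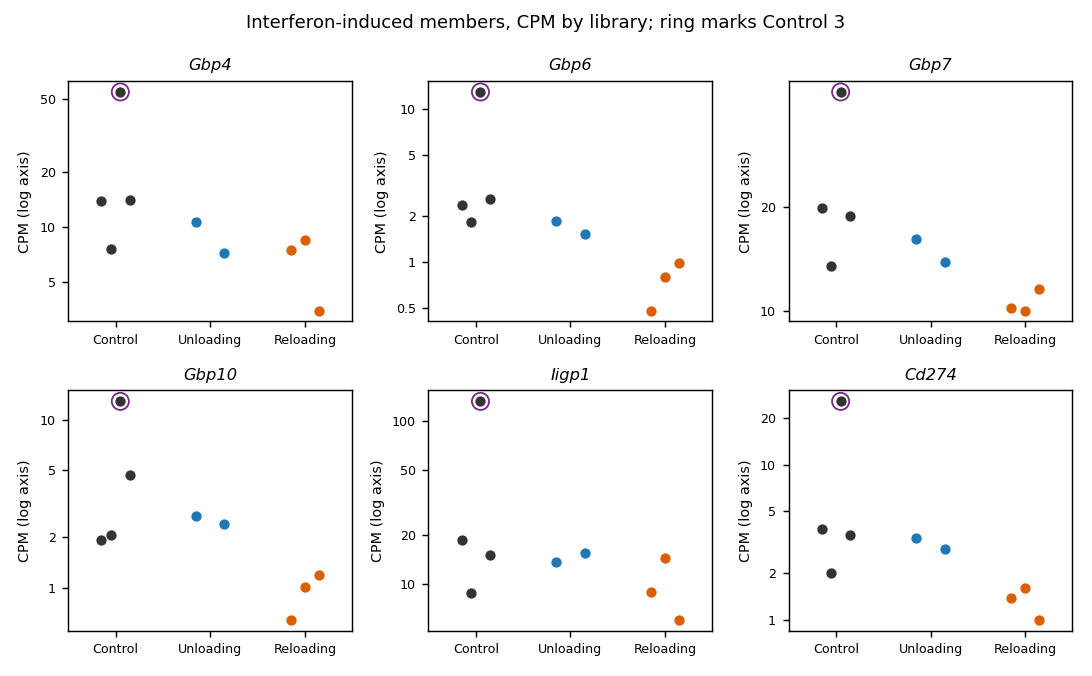
Each panel gives the CPM of an interferon-induced member in the 9 libraries on a log axis, and the ring marks Control 3. In all 6 panels Control 3 is the highest library, and the other Control libraries overlap the Unloading libraries.

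The wider list of MHC and interferon-responsive genes carried the same mark. Of its 56 tested genes, Gbp4, Gbp6 and Gbp7 among them, 55 were highest in Control 3 among the Control libraries, against 21.3% of all candidates. On unloading 10 were lower. The median fold change there was -0.80 on the log2 scale, and -0.28 without Control 3. Without Control 3 there were 9 genes called lower, and without Unloading 2 there were 2. Without Unloading 1 edgeR called 0 genes of the list lower, with 13 at an unadjusted p under 0.05. On reloading 5 were higher, with a median of 0.37, and this count was 13 without Control 3, 2 without Unloading 1 and 1 without Unloading 2. The macrophage markers summed to between 97.0 and 119 CPM in the 4 Control libraries, and the part of immune cells in these values was not tested.

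In each of the 9 settings that left out 1 library, 17 members met the rule: Adhfe1, Aldh4a1, Bcat2, Cacna2d4, Ccng1, Ephx2, Golm1, Idh2, Itgb1bp2, Ivd, Kcng4, Lpl, Myl3, Neto2, Pon3, Styx and Tnfsf10. Of these, 8 belong to fuel metabolism. When a step of 0.5 was asked for, 22 members remained, and at 0.3 the rule gave 128 genes, the 51 included. Among the genes gained at 0.3 were Bckdhb, Dbt and Cpt2, the last being the inner-membrane enzyme of fatty acid import into mitochondria. Of 30 tested fatty acid oxidation genes none was a member, 11 were lower on unloading, and 14 were lower and 2 higher on reloading. Their median on reloading was -0.22 after TMM and 0.03 with library totals. Without Unloading 1 edgeR called 0 of these lower on unloading, with 11 at an unadjusted p under 0.05, and without Unloading 2 the count lower on reloading was 5.

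Levels between Reloading and Control are the sum of both steps. The total fall ran from -1.82 in Myl3 to -0.86 in Shc2. Every Control library lay above every Reloading library for 49 of the 51 members, all but Gbp4 and Iigp1. The share of all candidates with that order is not given here. The members were selected on both steps, so nothing is read from this count. In edgeR's test, 21.3% of all tested genes were lower and 22.1% were higher in Reloading than in Control.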

How the data were processed

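Per the labels, the authors aligned reads to GRCm38.p6 with STAR 2.7.3a. Per the file headers, they counted read pairs per gene without regard to strand with featureCounts 2.0.3, against Ensembl release 102, whereas the study's methods describe single reads, so whether a count is a read or a pair is not settled. The deposited table holds raw counts for 55487 genes, without filter or normalization. The authors' DESeq2 tables hold fold changes and p-values, which were not used, and only their gene symbols and biotypes were read.

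Counts were scaled by TMM (edgeR 4.0.16, R 4.3.3), and group means were taken of log2(CPM + 1) over 4 Control, 2 Unloading and 3 Reloading libraries. Genes with 10 or more counts in at least 2 libraries were kept (15070, of which 12582 were protein-coding). The members and the gene lists were chosen with earlier results of these data known. The grouping by role, the interferon motifs, and the naming of members beyond the 12 largest falls, the 6 highest levels, the members of a list and the genes next to a threshold were chosen after values were seen, as were the non-members named.

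All 9 libraries entered a single edgeR quasi-likelihood fit with group as the only term (filterByExpr, minimum count 10, minimum total 15, 14851 genes), with two-sided tests and Benjamini-Hochberg adjustment at 0.05. This served for backgrounds and lists, not for the members' steps. The procedure was tested on simulated data. Alternatives were other scalings, pseudocounts, filters and thresholds, DESeq2 1.42.0, replicate blocks and leaving out each library. Without strand, reads of a gene and of an antisense partner cannot be told apart, and exons of 15 members overlap a gene on the other strand (Adhfe1, Bcat2, Bhlhe41, Cd274, Fam131a, Golm1, Gpr137c, Hddc2, Mb, Myl3, Neto2, Ostn, Oxct1, Shc2 and Styx).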

Additional observations from a re-analysis of the deposited data

Results flagged for a closer look

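In the 4 Control libraries, 3 members had a library far from the other 3 (gap to the nearest library divided by the range, above the 95% critical value of Dixon's test, on the log2(CPM+1) scale). Grb14 was highest in Control 2, with 21.1 CPM against 15.4 in the nearest library, a ratio of 0.874 on that scale. Gbp6 was highest in Control 3, with 12.9 against 2.57 CPM and a ratio of 0.852. Ephx2 was lowest in Control 1, with 22.6 against 28.6 CPM and a ratio of 0.837. Chance flags about 1 in 20 groups, and 51 groups of 4 were looked at. On the CPM scale, looked at after seeing the data, 5 members passed the same value: Gbp6, Cd274, Iigp1 and Gbp4, each highest in Control 3, and Grb14, with ratios from 0.862 to 0.932. The groups of 2 and 3 libraries were not looked at in this way.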

How the results depend on the processing

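The number of genes that met the rule was 51 and ranged from 41 to 60 when 1 library was left out. It was 17 with library totals only, 22 with a step of 0.5 and 128 with a step of 0.3. It lay within 1.5 times 51 with DESeq2 size factors (52), a pseudocount of 0.25 (56), edgeR's fitted fold changes (69), no filter on low counts (45), filterByExpr (51) and no overlap between groups (42). Genes called between Unloading and Control numbered 1470, with 121 to 1518 when 1 library was left out (949 without Control 3, 121 without Unloading 1, which leaves that group a single library assumed to vary like the others), and 2022 with no filter. For Reloading against Unloading the number was 5562 (3934 to 5654) and for Reloading against Control 6456 (5267 to 6506). With library totals, 17.2% and 19.8% of the calls in these comparisons were lower, against 50.7% and 49.1% after TMM. Of the values of single members under the alternatives, 1294 moved by less than the largest SD within a group. A further 30 moved by more and 2 changed sign. Leaving out 1 library cannot shift a group mean by that SD, apart from small changes of scaling. Those settings could therefore not count as moved by more, and nothing is read from the 1294. With library totals, 28 values moved by more. The 2 that changed sign were the first step of Iigp1 and of Cd274, at 0.097 and 0.024 without Control 3. They ranged over the libraries left out from -1.16 and -1.03 (without Control 2) to those values. Counts for lists without Control 3, Unloading 1 or Unloading 2 were added after seeing the data, and 33 of 120 moved by over 1.5 times.

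Replicate numbers are shared between groups. By the description numbers, the deviations of all 6 same-numbered pairs correlated positively (r of 0.08 between Control 3 and Reloading 2 to 0.22 between Control 2 and Reloading 1), 5 of them over 0.1. By the title numbers r ran from -0.16 to 0.20 over 7 pairs. As not every pair was over 0.1, the fit took the libraries to share only a number. The deviations of the 2 Unloading libraries are opposite by construction, so the pairs are not independent. Whether libraries with the same description number shared a batch was not tested. A replicate block by title number gave 1042, 5108 and 5705 calls, and a block by description number gave 1479, 4902 and 6632, all within 1.5 times the counts without it. With 2 unloaded libraries the split of the fall between the steps cannot be set firmly, and members under 5 CPM rest on few reads.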
